A study of Homo sapiens with 18 samples.

Results

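ESCRT-0 and ESCRT-II are the complexes that act before and after ESCRT-I on endosomes, and the mRNAs of their 6 subunits were followed here in cells from which ESCRT-I had been removed. The members, HGS, STAM and STAM2 of ESCRT-0 and SNF8, VPS25 and VPS36 of ESCRT-II, were picked by gene name; no measured value enters that rule, although earlier results of these data were known when it was set. They are 6 of the 20802 gene targets counted, and all 6 were among the 10246 tested genes. The cells were RKO, an established human colorectal carcinoma line, transfected with 30 nM of a single siRNA and harvested 72 h later. The 6 groups received the nontargeting siCtrl#1 or siCtrl#2, siTsg101#1 or siTsg101#2 against TSG101, or siVps28#1 or siVps28#2 against VPS28. Tsg101 and Vps28 are core subunits of ESCRT-I. Each group had 3 replicates, described in the labels as biological, with 1 replicate of every group in each of 3 labelled batches, which gave 18 libraries. The depletion is transient and rests on 1 cell line, and control cells were transfected as well.

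ESCRT complexes sort ubiquitinated membrane proteins into the vesicles that bud into endosomes and end in lysosomes. ESCRT-0 binds the ubiquitinated cargo first: Hrs, the product of HGS, holds the complex on the endosomal membrane, and Stam or Stam2, closely related proteins that can stand in for each other, pair with it. Hrs recruits ESCRT-I through Tsg101. ESCRT-II, built from Snf8, Vps36 and 2 copies of Vps25, binds ESCRT-I through Vps28 and starts assembly of ESCRT-III, the filament that closes the vesicle neck.

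The libraries held 2561790 to 7466916 reads on genes, with a median of 5022216. Each targeted mRNA was low in its own libraries. TSG101 stood at 2.49 to 4.97 CPM (read counts scaled to the size of the library after TMM normalization) in the 6 siTsg101 libraries, against 74.4 to 159 in the 6 nontargeting libraries. VPS28 stood at 3.46 to 7.85 CPM with siVps28, against 65 to 112. The epithelial genes EPCAM, KRT8 and KRT18 had over 100 counts, 3 of 7 epithelial markers, whereas CDH1 was at 0 in every library. The summed level of the 7 was 71.1 to 114 CPM, and 95.1 to 114 in the nontargeting libraries. Summed leukocyte, endothelial and fibroblast markers did not exceed 1.47 CPM in any library. PTPRC, CD3E, LYZ, CDH5, COL1A2, DCN and THY1 were at 0 throughout.

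On GRCh37, HGS lies on chromosome 17 from 79650356 to 79670168 (plus strand), STAM on chromosome 10 from 17686150 to 17758823 (plus) and STAM2 on chromosome 2 from 152973315 to 153032277 (minus). SNF8 lies on chromosome 17 from 47006678 to 47022204 (minus), VPS25 on chromosome 17 from 40925467 to 40931617 (plus) and VPS36 on chromosome 13 from 52986737 to 53024769 (minus). The panel reads a short amplicon of each transcript whose position was not known, so levels are compared between libraries and never between genes. Exons of HGS overlap antisense genes over 2808 bases, 303 of them in ARL16, and exons of VPS36 overlap THSD1 on the same strand over 357 bases. Exons of SNF8 and STAM overlap antisense noncoding genes over 483 and 42 bases. Of the SNF8 transcript, 36% matches transcripts of other genes at 90% identity or more, the longest run of 735 bases being in the pseudogene SNF8P1. Whether the SNF8 amplicon lies in that part is not known, so its counts may include reads of another gene. The corresponding share was 21.3% for HGS, all of it shared with an antisense noncoding gene at its own locus, 1.79% for VPS36, 1.21% for STAM2 and 0% for STAM and VPS25.

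Because HGS and STAM were the members that changed, stretches upstream of their start sites are shown beside that of STAM2, the paralog that was not called. Each is the plus or minus strand of GRCh37 as the gene runs, 5′ to 3′, from base 213 to base 80 before the RefSeq start site. Capitals mark the spacing of NFκB sites, GGG and CC with any 5 bases between them, on either strand. The windows are chr17:79650828-79650961 (plus), chr10:17685937-17686070 (plus) and chr2:153032357-153032490 (minus). The HGS stretch lies before the RefSeq start site but within the bounds of HGS given above, whereas those of STAM and STAM2 lie outside their genes. In the full window of 250 bases, HGS has 116 annotated exon bases, and STAM and STAM2 have 0.
HGS: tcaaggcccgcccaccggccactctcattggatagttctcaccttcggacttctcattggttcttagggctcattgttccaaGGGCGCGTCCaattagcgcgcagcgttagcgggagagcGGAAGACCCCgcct
STAM: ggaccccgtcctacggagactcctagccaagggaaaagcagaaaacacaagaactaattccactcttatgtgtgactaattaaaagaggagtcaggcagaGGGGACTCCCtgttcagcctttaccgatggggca
STAM2: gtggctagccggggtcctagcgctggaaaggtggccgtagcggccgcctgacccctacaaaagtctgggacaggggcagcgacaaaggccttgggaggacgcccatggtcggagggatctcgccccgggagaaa
In the full windows of 250 bases before the start, 4 of the 6 members had this spacing (VPS36 has 2 start sites in the table). They were HGS with 2 matches, STAM with 2, VPS25 with 1 and VPS36 with 3 and 1 in its windows, while STAM2 and SNF8 had none. The spacing was found in 54.4% of all 35116 windows of this length. CACGTG, the E-box core bound by MiT-TFE factors, was in 1 window, at VPS36, 75 bases before the start, and in 6.34% of all windows. No member window held TCACGTGA (0.854% of all windows) or the cyclic AMP response element TGACGTCA (1.65%). GC content was 66.8% for HGS, 56.8% for STAM and 68.4% for STAM2, against a median of 58% over all windows. A match describes the letters in these windows only.

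The level of HGS, the membrane-bound core of ESCRT-0, was highest in cells depleted of Tsg101. With siTsg101#1 it was 109, 103 and 114 CPM in replicates 1, 2 and 3, and with siTsg101#2 it was 112, 117 and 101 CPM. In the nontargeting libraries it was 59.5, 60 and 81.5 CPM with siCtrl#1 and 60.4, 54.6 and 59.1 CPM with siCtrl#2. All 6 siTsg101 libraries lay above all 6 nontargeting libraries, which was also true of 6.68% of all genes tested. In cells depleted of Vps28, HGS was at 97.9, 70.2 and 76.4 CPM with siVps28#1 and 81.4, 79.9 and 86.4 CPM with siVps28#2. The siVps28 range overlapped with that of the nontargeting libraries, and its highest library fell short of the lowest siTsg101 library at 101 CPM. As the RNA is bulk, a change in RNA per cell and a change in the mix of cells cannot be told apart.

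Relative to siCtrl#1, HGS rose 1.61-fold with siTsg101#1 (log2 fold change 0.69, standard error 0.16, adjusted p = 0.00215) and 1.64-fold with siTsg101#2 (0.71, standard error 0.15, adjusted p = 0.00206). These values are from edgeR's quasi-likelihood test with Benjamini-Hochberg adjustment over all genes tested, as are all adjusted p-values here. Calls required both a 1.5-fold change and an adjusted p under 0.05. With siVps28#1 and siVps28#2 the log2 fold changes were 0.28 (adjusted p = 0.311) and 0.30 (adjusted p = 0.221), which did not pass. Their 95% intervals ran from -0.048 to 0.60 and from -0.024 to 0.62, so their upper bounds fell short of the siTsg101 estimates by little. Against siCtrl#2, the value for siVps28#2 was 0.51 (adjusted p = 0.0384), below the 1.5-fold threshold.

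STAM, the partner that Hrs binds, followed the same order of targets. It was at 66.5, 58 and 69.4 CPM with siTsg101#1 and at 56.8, 79.5 and 56.1 CPM with siTsg101#2. The nontargeting libraries had 42.7, 28.6 and 40.9 CPM (siCtrl#1) and 27.7, 43.8 and 41.2 CPM (siCtrl#2). All 6 siTsg101 libraries lay above the nontargeting ones, as for 6.68% of all genes tested. With siVps28#1 STAM was at 50.5, 40.8 and 40.6 CPM, and with siVps28#2 it was at 49.8, 52.5 and 49.2 CPM. The Vps28 libraries started within the nontargeting range and ended below the lowest siTsg101 library.

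STAM rose 1.72-fold with siTsg101#1 (log2 fold change 0.78, standard error 0.19, adjusted p = 0.00446) and 1.7-fold with siTsg101#2 (0.77, standard error 0.19, adjusted p = 0.00588). With siVps28#1 its log2 fold change was 0.22 (95% interval -0.18 to 0.62, adjusted p = 0.552). With siVps28#2 it was 0.42 (0.027 to 0.82, adjusted p = 0.149), the only value of any member in the Vps28 groups relative to siCtrl#1 with an unadjusted p under 0.05 (0.0371). Relative to siCtrl#2, HGS had unadjusted p-values of 0.00504 with siVps28#1 (adjusted p = 0.0806) and 0.00341 with siVps28#2, and STAM one of 0.0365 with siVps28#2 (adjusted p = 0.179). The counts behind STAM were 93 to 511 per library, and those behind HGS 195 to 819.

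STAM2, the paralog of STAM, was not called with any siRNA. It ranged from 17.3 to 24 CPM in the nontargeting libraries (median 21.3), from 14.9 to 23.3 with siTsg101 (19) and from 14.7 to 24.5 with siVps28 (21.8), so the 3 sets overlapped throughout. Its log2 fold changes relative to siCtrl#1 were -0.17 and 0.016 for the siTsg101 siRNAs #1 and #2 and 0.046 and 0.029 for the siVps28 siRNAs #1 and #2, each smaller than its standard error of 0.22 to 0.23. The 95% interval for the mean of the 4 on-target siRNAs was -0.39 to 0.35. STAM2 was counted least often of the members, with 57 to 147 reads per library, and as a fold change the same interval ran from 0.761 to 1.28.

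**Figure D1:**
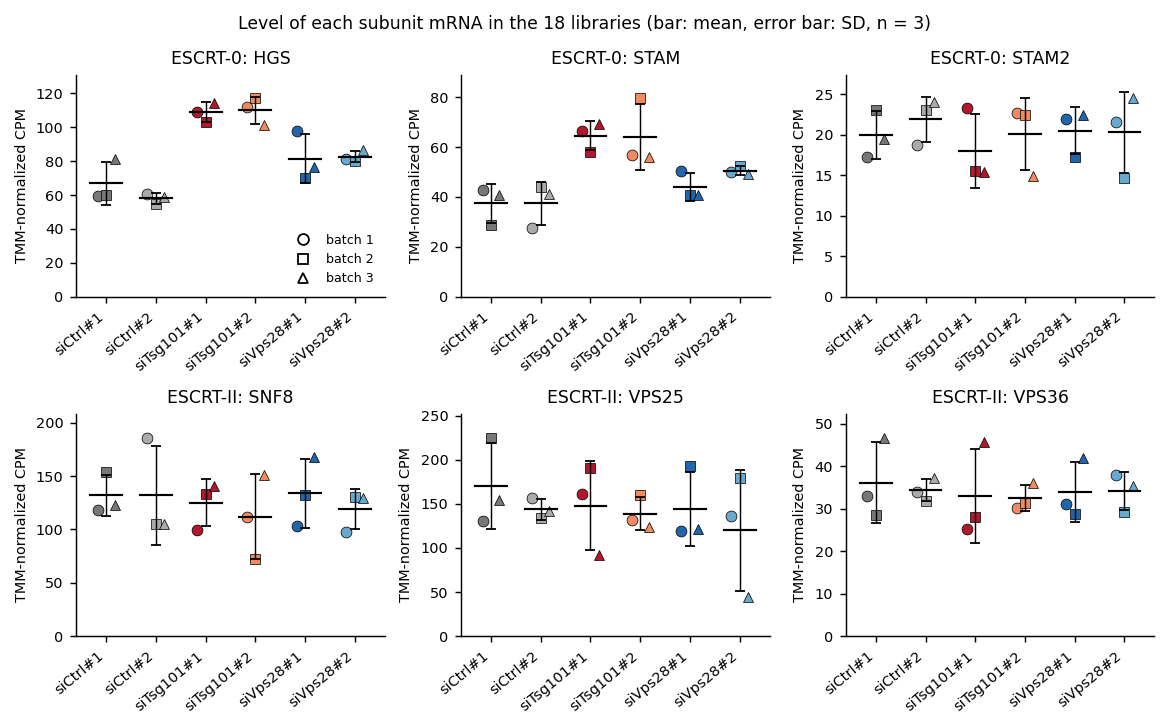
TMM-normalized CPM (vertical axes, from 0) of the 6 subunit mRNAs in the 18 libraries, by siRNA group (horizontal axes). Points are libraries with the symbol of their batch, and bars and error bars are the mean and SD of 3. In the panels of HGS and STAM all siTsg101 points lie above all nontargeting points, and the lone low point of VPS25 with siVps28#2 is at 44.7 CPM.

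No ESCRT-II mRNA was called with any siRNA. SNF8, which forms the core of the complex with Vps36, was at 118, 154 and 123 CPM with siCtrl#1 and at 186, 105 and 105 CPM with siCtrl#2. With siTsg101 it ranged from 72 to 151 CPM and with siVps28 from 97.6 to 168 CPM. Its log2 fold changes lay between -0.23 (siTsg101#2) and 0.031 (siVps28#1), and no adjusted p was below 0.542. Its highest value, 186 CPM in siCtrl#2 replicate 1, stood apart from the other replicates of that group, while the siTsg101#2 libraries were spread evenly at 112, 72 and 151 CPM.

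VPS36, the subunit of ESCRT-II that binds membrane lipids and ubiquitin, was at 28.6 to 46.7 CPM in the nontargeting libraries, 25.3 to 45.6 with siTsg101 and 28.7 to 42 with siVps28. Its log2 fold changes were -0.11, -0.17, -0.099 and -0.092 with siTsg101#1, siTsg101#2, siVps28#1 and siVps28#2, at standard errors of 0.21 to 0.22. The 4 values had one sign but share the siCtrl#1 libraries, and the 95% interval of their mean ran from -0.47 to 0.24. That interval includes 0 as well as a fall to 0.723-fold, so it shows neither a change nor its absence.

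VPS25, the subunit that contacts ESCRT-III, had the widest spread of the 6 members, with a biological coefficient of variation of 27.9% against 13.2% for HGS. It was at 131, 225 and 154 CPM with siCtrl#1, and at 157, 134 and 142 CPM with siCtrl#2. With siTsg101#1 it was at 161, 191 and 91.8 CPM, and with siTsg101#2 at 132, 160 and 124 CPM. The siVps28#1 libraries had 119, 193 and 121 CPM, and the siVps28#2 libraries 136, 179 and 44.7 CPM. The last of these rests on 257 reads, where the other 2 libraries of the group had 841 and 1082. The log2 fold change with siVps28#2, -0.50 (95% interval -1.17 to 0.18, adjusted p = 0.343), was -0.10 without that library. What sets this library apart for VPS25 was not tested.

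**Figure D2:**
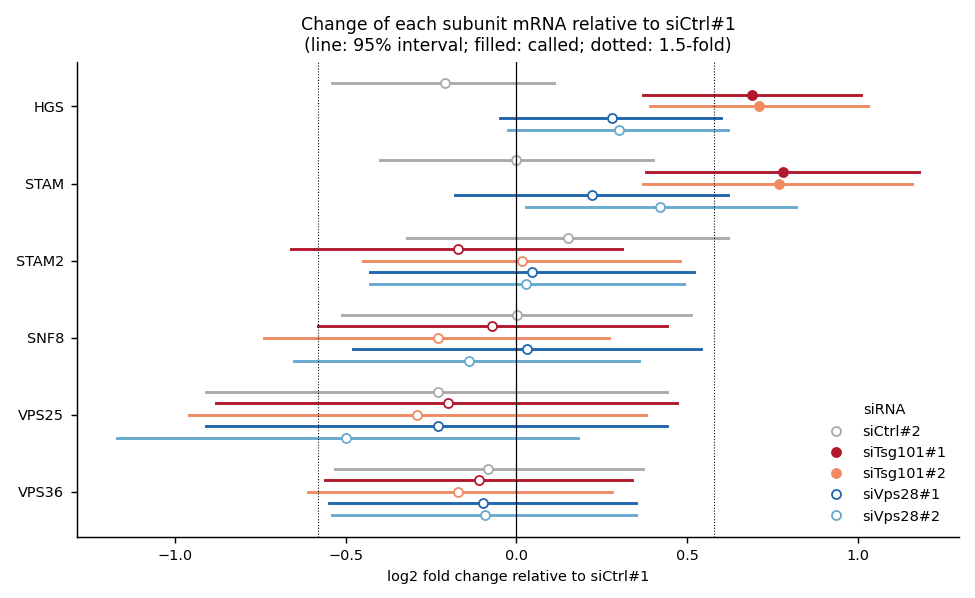
Log2 fold change relative to siCtrl#1 (horizontal axis) of each member (rows) with siCtrl#2 and the 4 on-target siRNAs. Points are edgeR estimates, lines their 95% intervals, filled points were called, and dotted lines mark 1.5-fold. The 4 filled points are HGS and STAM with siTsg101#1 and siTsg101#2, at 0.69 to 0.78.

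Thus 2 of the 6 members were called higher with siTsg101#1, where 11.6% of all genes tested were, and 2 with siTsg101#2, against 10.1%. The siVps28 groups had 0 members called higher, against 4.85% of all genes with siVps28#1 and 7.09% with siVps28#2. At an unadjusted p under 0.05 edgeR gave 0 and 1 members in these 2 groups, and DESeq2 called 0 in both. Counts at an unadjusted p are given throughout without the share of all genes, and are not read as results. No member was called lower in any of the 4, where the shares of all genes were 10.1%, 6.94%, 3.78% and 6.22% for siTsg101#1, siTsg101#2, siVps28#1 and siVps28#2. The 4 contrasts share the siCtrl#1 libraries. The median log2 fold change of the 6 members was -0.09, -0.074, 0.038 and -0.031 in the same order, and that of all genes tested was -0.01, -0.0047, 0.0056 and 0.014.

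For the mean of the 4 on-target siRNAs, HGS was 1.41-fold higher than in siCtrl#1 (log2 0.49, 95% interval 0.23 to 0.76, adjusted p = 0.00624) and STAM 1.46-fold higher (0.55, 0.22 to 0.87, adjusted p = 0.0133). Both passed the p-value and missed the fold threshold, so that 0 members were called by edgeR or DESeq2 (2 had an unadjusted p under 0.05), where 8.40% of all genes were called higher and 6.57% lower. By the adjusted p alone 2 members were higher, against 12.0% of all genes. The other members had log2 values of -0.02 (STAM2), -0.10 (SNF8), -0.31 (VPS25) and -0.12 (VPS36), with adjusted p-values of 0.415 or more. The result for HGS rests on siCtrl#1, which had the level of 81.5 CPM in replicate 3: without replicate 1 of siCtrl#1 the adjusted p was 0.0629 (log2 0.41), and without replicate 2 it was 0.054 (0.43). That for STAM had an adjusted p of 0.126 (0.40) without siCtrl#1 replicate 2, its lowest siCtrl#1 library. With siCtrl#2 as the reference HGS reached 0.71 and was called, while STAM stayed at 0.55.

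The nontargeting siRNAs were compared with each other as well. The siCtrl#2 log2 values relative to siCtrl#1 ran from -0.23 (VPS25) to 0.15 (STAM2), with -0.21 for HGS and -0.0017 for STAM. None was called, and 0 had an unadjusted p under 0.05 in edgeR or were called by DESeq2, where 2.06% of all genes were called in either direction. The HGS difference between the controls, with a 95% interval of -0.54 to 0.11, was enough for the choice of reference to decide whether HGS was called for the mean of the 4 siRNAs. Nor was any member called between siTsg101#1 and siTsg101#2 (6.94% of all genes) or between siVps28#1 and siVps28#2 (0.488%), with 0 members at an unadjusted p under 0.05. HGS differed by -0.022 between the siTsg101 siRNAs (95% interval -0.34 to 0.29) and STAM by 0.012 (-0.37 to 0.40).

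Whether Tsg101 and Vps28 depletion differed was tested directly, as the mean of both siTsg101 groups minus the mean of both siVps28 groups. The nontargeting libraries have no weight in this difference, but they entered the normalization and the estimate of the spread. HGS was 1.34-fold higher with siTsg101 (log2 0.42, 95% interval 0.19 to 0.64, adjusted p = 0.013) and STAM 1.37-fold higher (0.45, 0.18 to 0.73, adjusted p = 0.0282). For both genes all 6 siTsg101 libraries lay above all 6 siVps28 libraries, as 3.28% of all genes did. Neither difference reached 1.5-fold, where 4.12% of all genes were called higher and 2.08% lower. By the adjusted p alone 2 of 6 members were higher, against 6.47% of all genes. STAM2 (-0.12), SNF8 (-0.096), VPS25 (0.12) and VPS36 (-0.042) did not pass, with 95% intervals that all included 0 and adjusted p-values of 0.711 or more. The HGS difference kept an adjusted p of at most 0.0445 when any 1 library was left out. That of STAM passed 0.05 upon removal of 6 single libraries: siTsg101#1 replicate 1 (0.0521), siTsg101#1 replicate 3 (0.071), siTsg101#2 replicate 2 (0.0909), siVps28#1 replicate 2 (0.0688), siVps28#1 replicate 3 (0.068) and siVps28#2 replicate 1 (0.0509).

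By group means HGS was ordered siTsg101#2 (110 ± 7.98 CPM, SD, n = 3), siTsg101#1 (109 ± 5.81), siVps28#2 (82.6 ± 3.38), siVps28#1 (81.5 ± 14.5), siCtrl#1 (67 ± 12.6) and siCtrl#2 (58 ± 3.04). For STAM the order was siTsg101#1 (64.6 ± 5.9), siTsg101#2 (64.1 ± 13.3), siVps28#2 (50.5 ± 1.74), siVps28#1 (44 ± 5.66), siCtrl#2 (37.5 ± 8.63) and siCtrl#1 (37.4 ± 7.68). Of the 15 pairs of groups, 4 were called for HGS and 4 for STAM, in each case both siTsg101 groups against both nontargeting groups. No neighbours in either order passed, and neither did any single siTsg101 group against a single siVps28 group, where the adjusted p-values were 0.0962 to 0.115 for HGS and 0.0721 to 0.29 for STAM. None of the 15 pairs was called for STAM2, SNF8, VPS25 or VPS36, nor did any have an adjusted p under 0.05.

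Since every batch held 1 library of each group, differences were also read within batches. HGS with siTsg101#1 exceeded the siCtrl#1 library of its batch by 0.86, 0.77 and 0.49 on the log2 scale in batches 1, 2 and 3, and with siTsg101#2 by 0.91, 0.96 and 0.32. For siVps28#1 these differences amounted to 0.71, 0.23 and -0.093, and for siVps28#2 to 0.45, 0.41 and 0.083. The smallest value of each group came from batch 3, in which the siCtrl#1 library had the highest nontargeting level of HGS. STAM with siTsg101#1 differed by 0.63, 1.01 and 0.76, and with siTsg101#2 by 0.41, 1.46 and 0.45. The siVps28#1 libraries differed in STAM by 0.24, 0.51 and -0.011, those of siVps28#2 by 0.22, 0.87 and 0.26. Here batch 2 gave the highest value of each group, the batch in which siCtrl#1 had its lowest STAM level. Between siTsg101 and siVps28, HGS differed by 0.31, 0.55 and 0.41 and STAM by 0.29, 0.55 and 0.48, positive in 3 of 3 batches for both.

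**Figure D3:**
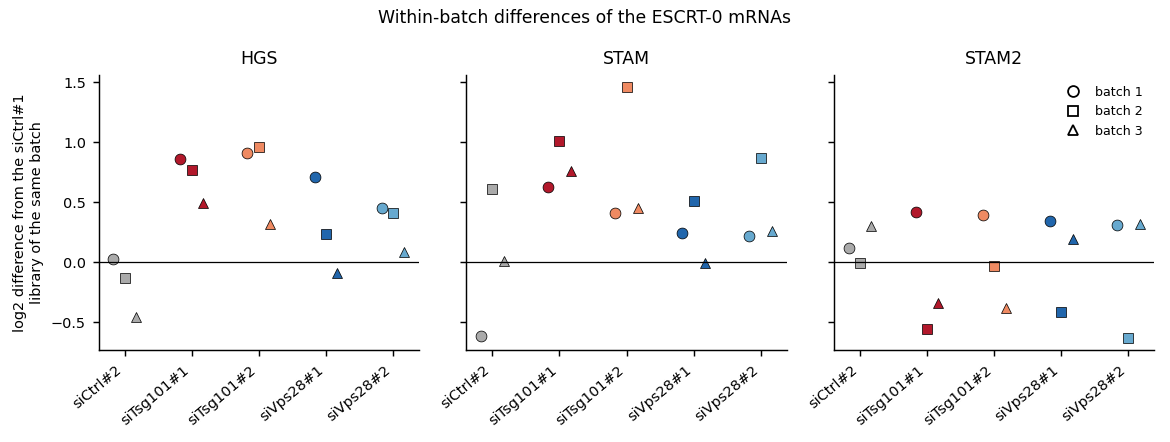
Log2 difference of each library from the siCtrl#1 library of the same batch (vertical axis) for HGS, STAM and STAM2, by siRNA group (horizontal axes). Each point is 1 library and its symbol the batch. All 6 siTsg101 points are above 0 for HGS (0.32 to 0.96) and for STAM (0.41 to 1.46), while those of STAM2 lie on both sides of 0.

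STAM2 differed in sign between batches, as its siTsg101#1 difference was 0.42, -0.56 and -0.34 over the 3 batches. Of the ESCRT-II members, VPS25 and VPS36 had the lowest p-values for the batch. VPS25 stood at 0.37 in batch 2 and -0.36 in batch 3 relative to batch 1 (log2), with an adjusted p of 0.0542 for the batch term. VPS36 was -0.11 in batch 2 and 0.33 in batch 3 relative to batch 1 (adjusted p = 0.0536). Neither passed the threshold, so 0 of 6 members were called for the batch against 4.56% of all genes, and their unadjusted p-values were 0.00263 and 0.00254. The batch term was examined after these values had been seen.

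The proportions of reads were compared within libraries. For each STAM2 read there were 1.24 to 2.47 STAM reads in the nontargeting libraries (median 1.8), 2.5 to 4.52 with siTsg101 (3.64) and 1.81 to 3.56 with siVps28 (2.3). The siTsg101 and nontargeting ranges did not overlap, although their nearest libraries were separated by little. The level of STAM alone already separated these libraries, as did that of 6.68% of all genes tested. No share over other pairs of genes was computed, so the separation is not a further result. The siVps28 range overlapped both. These proportions are free of library normalization but depend on the amplicons of both genes, so that they do not give the ratio of the transcripts. HGS reads per STAM read had medians of 1.71, 1.71 and 1.74 in nontargeting, siTsg101 and siVps28 libraries, with ranges of 1.25 to 2.18, 1.47 to 1.98 and 1.52 to 1.94.

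**Figure D4:**
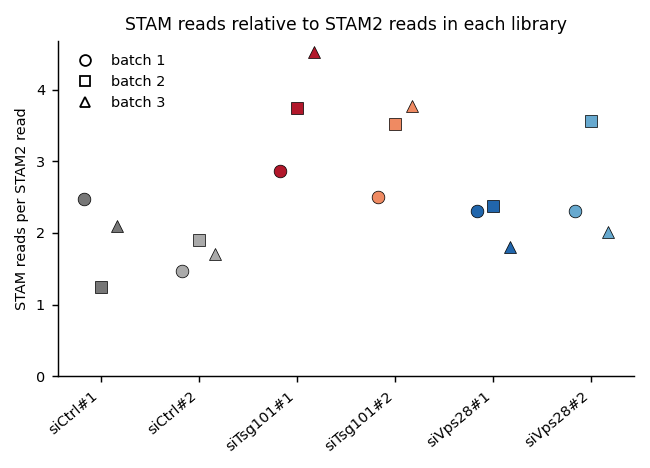
STAM reads per STAM2 read (vertical axis, from 0) in each of the 18 libraries, by siRNA group (horizontal axis), with the symbol of the batch. The nontargeting libraries end at 2.47 and the siTsg101 libraries begin at 2.5.

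Across the 18 libraries the log2 levels of HGS and STAM had a Pearson r of 0.84, higher than 99.3% of the genes tested had with HGS. For deviations from the group means r was 0.36. With STAM2, HGS had an r of -0.16 and STAM of -0.15, and the ESCRT-II members had r of -0.015 (SNF8 and VPS25), 0.23 (SNF8 and VPS36) and -0.43 (VPS25 and VPS36) among themselves. The pattern most like that of HGS was found in CEBPB, SELENOM and ABCC4 (r = 0.93 each), and the pattern most like that of STAM in TENT2 (0.94), ME2 and GLIPR1 (0.92 each). For STAM2 the genes most alike were ODR4 (0.68), VPS54 (0.67) and ZNF26 (0.66). SNF8 was most like EXOSC4 (0.89), RPLP2 (0.88) and MED27 (0.87), VPS25 like DGUOK (0.86), IDH3G (0.84) and INPP5B (0.83), and VPS36 like ESPL1 (0.77), TBL2 and KMT2B (0.76 each). Each is the highest among 10245 genes over 18 libraries that share groups and batches, and is a description.

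The genes that surround the 6 subunits in the pathway were followed as lists. Of 9 ESCRT-I genes tested, 1 was called higher and 2 lower for the mean of the 4 on-target siRNAs. Of all genes tested, 8.40% were called higher and 6.57% lower. The 2 called lower were the targets TSG101 and VPS28, which the siRNAs silence by design. With these targets counted, the median log2 value of the list was -0.15, against -0.0079 for all genes. That median therefore does not describe the untargeted genes, which ran from -0.48 to 0.88, with 4 of them positive. VPS37A, a Tsg101 partner within ESCRT-I, was higher by 0.88 (adjusted p = 0.00213). Its mean level was 9.01 ± 2.83 CPM with siCtrl#1 and 22.6 ± 4.16 and 26.2 ± 1.31 with siTsg101#1 and siTsg101#2, but 10.2 ± 2 and 13.5 ± 2.33 with siVps28#1 and siVps28#2 (SD, n = 3). Between siTsg101 and siVps28, besides the targets, VPS37A was higher by 1.06 (adjusted p = 6.33e-05) and MVB12A, another ESCRT-I subunit, had a log2 value of -1.14 (adjusted p = 3.31e-06). With the targets counted, the list then had 2 genes called higher and 2 lower, where 4.12% and 2.08% of all genes were. Its median was -0.081, against -0.017 for all genes.

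Of 15 genes of ESCRT-III and VPS4, which act after ESCRT-II, 0 were called for the mean of the 4 siRNAs in either direction by edgeR or DESeq2 (4 had an unadjusted p under 0.05 in edgeR), and 1 was higher and 0 lower by the adjusted p alone in edgeR (median 0.20 on the log2 scale). Of all genes tested, 8.40% were called higher and 6.57% lower, and 12.0% were higher by the adjusted p alone. Between siTsg101 and siVps28 only CHMP1A, an ESCRT-III-related subunit, was called, higher with siTsg101 by 0.70 (adjusted p = 0.000152). It was at 70.9 ± 5.97 and 63.1 ± 5.71 CPM with siTsg101#1 and siTsg101#2, against 42.8 ± 2.09 and 39.9 ± 3.28 with siVps28#1 and siVps28#2 (SD, n = 3). The median of that list was -0.017, equal to that of all genes, of which 4.12% were called higher and 2.08% lower.

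Among 20 partners of the 2 complexes and adaptors that bind ubiquitinated cargo as ESCRT-0 does, 1 was called higher and 2 lower for the mean of the 4 siRNAs (median 0.013). Of all genes tested, 8.40% were called higher and 6.57% lower. TOM1, a ubiquitin-binding adaptor with the same VHS domain as Hrs and Stam, was higher by 0.73 (adjusted p = 0.00104), and with siVps28#1 and siVps28#2 by 0.82 and 0.73. GGA2, a VHS-domain adaptor of the Golgi, fell with an adjusted p of 2.08e-06, and its log2 fold changes for the single siRNAs were -0.91, -1.25, -0.78 and -1.04. RILP, a Rab7 effector that binds ESCRT-II, had a log2 value of -0.89 (adjusted p = 0.00085). All 3 were called with each of the 4 siRNAs relative to siCtrl#1, and none of the 3 passed between the targets. TOM1 was at 31.8 ± 3.63 CPM in siCtrl#1 and 38.7 ± 6.42 in siCtrl#2, against on-target means of 48.5 to 56.7. GGA2 was at 84.4 ± 13 and 67.9 ± 5.11, against 35.4 to 48.9, and RILP at 20.3 ± 3.02 and 20.7 ± 4.95. For TOM1 and GGA2 the siCtrl#2 mean lay nearer to the on-target means, and calls relative to siCtrl#2 are not given for these genes. The 2 genes called between siTsg101 and siVps28, where 4.12% of all genes were called higher and 2.08% lower, encode the deubiquitinating enzymes that bind Stam. USP8 was higher with siTsg101 by 0.65 (adjusted p = 0.00645) and STAMBP had a log2 value of -0.68 (adjusted p = 0.000376). USP8 was at 31 ± 3.79 and 28 ± 6.89 CPM with siTsg101#1 and siTsg101#2, and at 18.7 ± 3.09 and 19.1 ± 1.7 with siVps28#1 and siVps28#2. STAMBP was at 26.7 ± 1.48 and 21.1 ± 2.41 CPM with the siTsg101 siRNAs and at 34.9 ± 1.81 and 41.6 ± 4.21 with the siVps28 siRNAs (SD, n = 3). Relative to siCtrl#1, where it was at 29.6 ± 4.38 CPM, STAMBP was not called with any siRNA. It passed the adjusted p alone with siTsg101#2 (-0.49, adjusted p = 0.0474) and siVps28#2 (0.50, adjusted p = 0.0477), in opposite directions. In siCtrl#2 STAMBP was at 35.6 ± 6.04 CPM, between the means of the 2 siVps28 groups, and fold changes relative to siCtrl#2 are not given. Relative to siCtrl#1, USP8 was called with siTsg101#1 only (0.62, adjusted p = 0.0407). With siTsg101#2 it was at 0.46 (adjusted p = 0.133), and with siVps28#1 and siVps28#2 at -0.13 and -0.086.

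**Figure D5:**
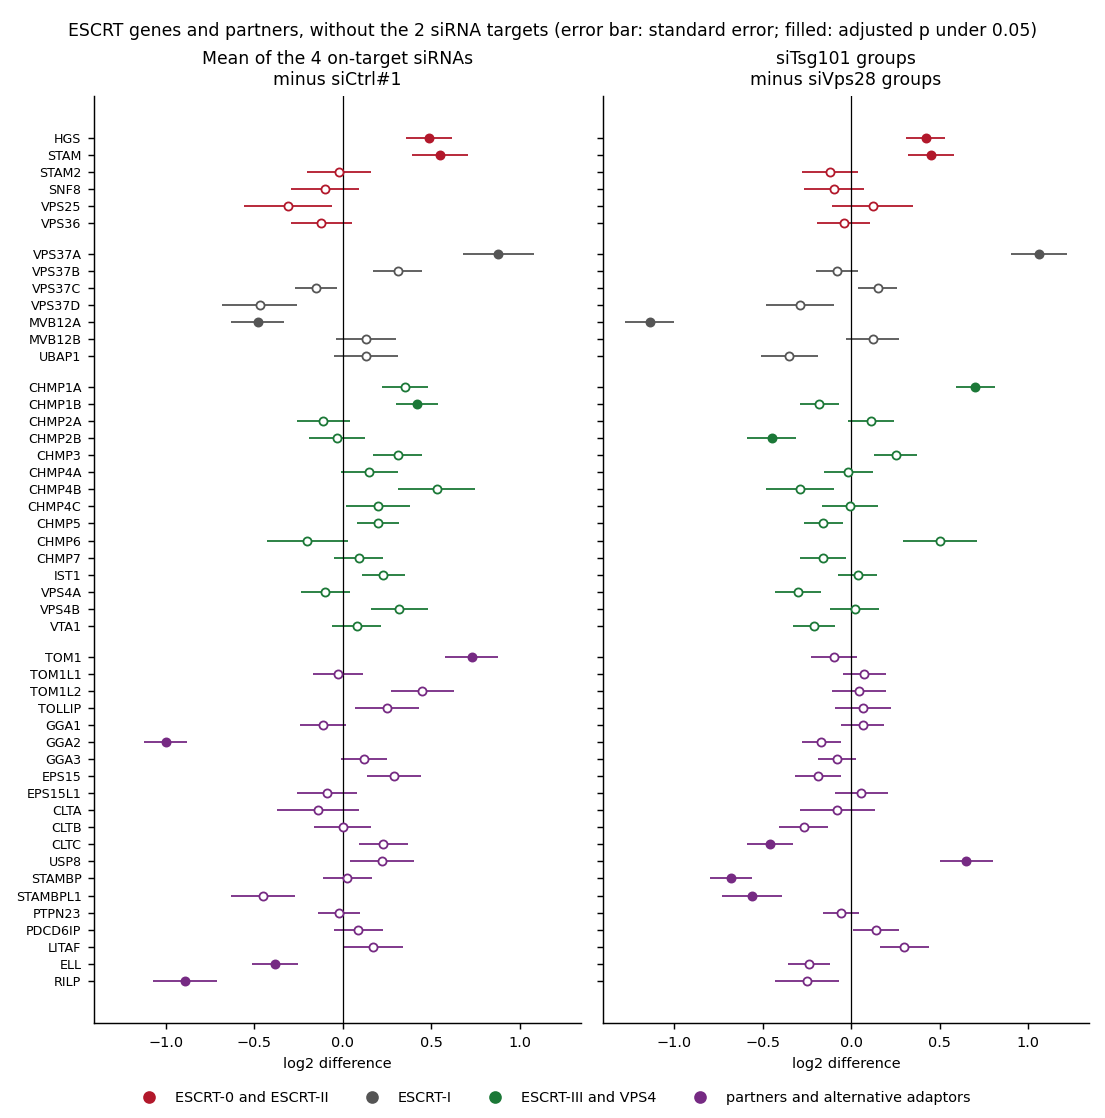
Log2 difference (horizontal axes) of the 6 members and the listed pathway genes (rows) for the mean of the 4 on-target siRNAs minus siCtrl#1 (left) and siTsg101 minus siVps28 groups (right), with the targets TSG101 and VPS28 left out. Points are edgeR estimates with standard errors, filled at an adjusted p under 0.05. HGS and STAM are filled in both panels, at 0.49 and 0.55 on the left and 0.42 and 0.45 on the right.

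ARL16, an antisense neighbour of HGS, was looked at after the values of HGS were known. It shares 303 of the 2808 antisense bases at HGS. No values are given for the noncoding antisense genes there, which share 1815 and 690 bases. ARL16 had 1356 reads in all libraries, a log2 fold change of -0.10 with siTsg101#1 (adjusted p = 0.798) and -0.32 with siTsg101#2 (adjusted p = 0.37), neither of which was called. THSD1, the neighbour of VPS36, had 208 reads in all.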

How the data were processed

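RNA of 18 libraries from RKO cells was measured, 3 for each of 6 siRNA groups; groups and replicate numbers come from the labels, which also give the replicate number as the batch. Libraries were made by the authors with an Ion AmpliSeq Transcriptome panel, who mapped the reads to its hg19 reference and counted them per target with HTSeq-count. Per the submitters' processing notes, HTSeq 0.6.0 and DESeq2 1.18.1 were used. The deposited values are whole-number counts without normalization, and the strand setting of the counting is not given in the sources used here. Without it, reads of a gene and its antisense partner cannot be told apart.

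Reads on genes were 45.40% to 46.68% of each library, and 48.23% to 49.07% were assigned to no feature. These classes and 10 spike-in targets, with 1 read in all, were left out. Of 20802 targets, 20228 were matched to a symbol. A summed count of over 100 was required (10632 genes), and 386 of a noncoding type were left out, as in the study's methods, leaving 10246. After TMM normalization edgeR 4.0.16 (R 4.3.3) was fitted, with all 6 groups in one model and no block, and tested by its quasi-likelihood test. Standard errors were derived from the test statistic and 95% intervals from its degrees of freedom. On simulated counts with 200 changed genes, siTsg101#1 against siCtrl#1, 63% of genes changed by 1 and 89% of those changed by 1.5 (log2) were recovered among 10246. Recovery meant an adjusted p under 0.05 with the simulated sign, without the 1.5-fold threshold. Changes as small as those of the members were not simulated. CPM carry no correction for transcript length. PCR reads without molecular identifiers are not independent molecules, so every test rests on the spread between replicates; the correlation within groups was 0.9636 to 0.9882.

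The replicate numbers pair the libraries because the labels give them as batches. Deviations from group means of same-numbered libraries correlated by 0.15 on average over 45 pairs (-0.15 to 0.39). A fit with the replicate block was an alternative, beside DESeq2 1.42.0, RLE factors, other filters, other references, the compared groups alone, and each library left out in turn. All 15 pairs of groups and the batch term were added after values had been seen.

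The named genes are the members, the siRNA targets, the pathway genes called for the mean of the 4 siRNAs or between the targets (at most 6 a list), and the 3 genes most correlated with each member. ARL16 and THSD1 were named after values had been seen. Members and lists were chosen with earlier results of these data known. Gene positions and exon overlaps are from GENCODE 44 on GRCh37. Shared sequence was found with blastn 2.17.0 (at least 50 bases, 90% identity). Promoter windows come from a RefSeq table of GRCh38.p14 and were placed on GRCh37 by exact match; the printed stretch is the longest run of the HGS window free of annotated exons, and the same positions were taken for the others. Amplicon and siRNA sequences were not analysed here.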

Additional observations from a re-analysis of the deposited data

Results flagged for a closer look

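HGS differed between Tsg101 and Vps28 depletion in a test of the difference itself, by 0.42 on the log2 scale (edgeR, adjusted p = 0.013), with all 6 siTsg101 libraries above all 6 siVps28 libraries, as for 3.28% of all genes tested. STAM differed by 0.45 (edgeR, adjusted p = 0.0282), likewise with all 6 libraries above, and lost the threshold when any of 6 single libraries was left out. Neither difference reached 1.5-fold, so 0 members were called by edgeR or DESeq2, where 2 had an unadjusted p under 0.05 in edgeR. No member was examined for outlying libraries by a formal rule, since groups of 3 are too small for it.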

How the results depend on the processing

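Over 54 values (6 members in 9 contrasts) and 1410 recomputed values, 1399 kept their direction or stayed uncalled on the same side of an adjusted p of 0.05, 9 lost it, 2 gained it and 0 called values reversed. In 91 cases the sign of an uncalled value changed, in 32 of the 54. Not all of these were near 0, as VPS25 went from 0.26 to as low as -0.13 between siVps28#1 and siVps28#2 with 1 library left out. HGS and STAM kept their calls with siTsg101#1 and siTsg101#2 under all alternatives run, with adjusted p-values up to 0.0171 and 0.0168 for HGS and 0.0306 and 0.0456 for STAM. The replicate block changed no call of a member (mean of the 4 siRNAs: HGS 0.50, adjusted p = 0.0041, STAM 0.54, adjusted p = 0.0131). For the mean of the 4 siRNAs the count of members called was 1 instead of 0 with siCtrl#2 or with both nontargeting siRNAs as the reference (HGS, 0.71 and 0.60), 2 by the adjusted p alone, and 0 to 2 when 1 library was left out (1, STAM, without siCtrl#1 replicate 1, and 2 without siCtrl#1 replicate 3). Between siTsg101 and siVps28 it was 2 by the adjusted p alone. By the adjusted p alone, 12.0% of all genes were higher for the mean of the 4 siRNAs and 6.47% between the targets. Shares of all genes under the other references and with a library left out are not given, so those counts are not read as results. With 1 library left out, the mean of the 4 siRNAs ranged from 0.41 to 0.66 for HGS (adjusted p up to 0.0629) and from 0.40 to 0.65 for STAM (up to 0.126), and the difference between the targets from 0.37 to 0.51 for STAM (up to 0.0909). HGS with siVps28#2 passed with siCtrl#2 (0.51, adjusted p = 0.0384) or both nontargeting siRNAs (0.40, adjusted p = 0.0401) as the reference. The cause of these shifts was not tested. Depth limits STAM2 and VPS36 most, with lowest counts of 57 and 62, where counting alone gives a coefficient of variation of 13.2% and 12.7%.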

Other observations

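Within groups, STAM and SNF8 deviated in opposite directions. Over the 18 libraries the deviations of their log2 levels from the group means had a Pearson r of -0.80 and a Spearman rho of -0.78, and r was -0.75 without the 2 libraries farthest from the median of STAM. Of all genes tested, 0.586% had a correlation with STAM at or below this value. The pair was the most extreme of the 15 among the members and was noticed in the data, the libraries share batches and preparation, and no test was made. The deviations of STAM and SNF8 had correlations of 0.19 and 0.20 with those of log2 library size.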
